A study of Mus musculus with 9 samples.

Results

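The SLC25 carriers are a family of small proteins, most of them in the inner membrane of the mitochondrion, that exchange nucleotides, phosphate, amino acids, organic acids and cofactors between the matrix and the cytosol. Their transcripts were examined in 9 RNA sequencing libraries from C2C12, an established mouse myoblast line that fuses into multinucleated fibres in low serum. Members were the genes whose symbol is Slc25a followed by a number, each represented by its transcript with the highest mean count, with a mean of at least 0.5 CPM (counts scaled to library size) over the 9 libraries. Of 46 such symbols among the 24063 in the tables, 38 reached that level, and 1 further symbol of this form was left out by the rule and is not analysed here. The lowest member was Slc25a43, with a mean of 1.45 CPM, and the highest symbol below the level was Slc25a34, with 0.231 CPM. Slc25a43 is represented by a transcript that RefSeq classes as non-coding, the most abundant of its 3.

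The libraries form 3 groups of 3, all from wild-type C2C12 cells differentiated in DMEM with 2% fetal bovine serum and labelled day 3. The 1C-MIM fibres received 6 metabolites of the one-carbon network, the reactions that move methyl and other single-carbon units on folate and S-adenosylmethionine. The scramble fibres received 6 metabolites from outside that network, and the control fibres stayed in normal medium. Neither set of metabolites is named in the sources used here, nor are their doses, and C2C12 is a single line, so the groups describe 1 cell model. Nothing in the labels ties replicate libraries to separate cultures. The p-values therefore reflect library-to-library spread that may be technical.

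Library depth was 29.0 to 30.3 M counts in 1C-MIM, 29.1 to 31.8 M in scramble and 31.2 to 33.2 M in control, with 1 transcript per symbol. Of 8 tested muscle fibre markers, Myog and Ckm rose against both other groups. The summed fibre marker level was 7590.0 to 9400.1 CPM in 1C-MIM, 5387 to 7748 CPM in scramble and 4598 to 8917 CPM in control, and library 1 was the highest of each group. The dividing cell markers Mki67, Top2a, Ccnb1 and Cdk1 all fell in 1C-MIM, with a summed level of 529 to 659 CPM, against 1077 to 1281 CPM in scramble and 1002 to 1316 CPM in control. Of 2 myoblast markers, Pax7 rose. Over all tested genes, 22.9% rose and 24.3% fell against control, and 22.9% rose and 23.2% fell against scramble. Among 7 markers of endothelial, immune, fat and epithelial cells, Cd68 was the highest at no more than 2.64 CPM in any library, and Epcam was at 0 counts in all of them. Control replicate 1 stood apart: the 7 carriers that fell in 1C-MIM against control were all lower there than in the mean of the other control libraries, with a median log2 difference of -0.29. Of the 13 that rose, 10 were higher there (median 0.11); over all 38 carriers 17 were lower and 21 higher (median 0.05), and the median over all tested genes was -0.00. Without that library 21 carriers were called against control, 13 higher and 8 lower, where 7195 of 14123 tested genes were called. In bulk RNA, fewer cells of a type and less RNA per cell cannot be told apart, and the part of these marker differences in the carrier results was not tested.

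As background, most family members work as exchangers: the ADP/ATP carriers bring ADP in and send ATP out, and the phosphate carrier supplies the other substrate of ATP synthesis. In muscle, the aspartate/glutamate and oxoglutarate/malate carriers run the malate-aspartate shuttle, which brings reducing power from the cytosol into mitochondria, and the carnitine carrier admits fatty acids for oxidation. Other members feed one-carbon, haem, nucleotide and redox metabolism inside the matrix by moving S-adenosylmethionine, glycine, pyrimidine nucleotides, NAD, iron and glutathione.

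Levels between carriers were compared in deposited TPM, which corrects for transcript length. The muscle ADP/ATP carrier Slc25a4 was the most abundant, at 494 ± 6.6 TPM in 1C-MIM, 517 ± 17 TPM in scramble and 525 ± 15 TPM in control (SD, n = 3 each). Slc25a5, the ADP/ATP carrier typical of dividing cells, followed with 400.0 ± 14, 371 ± 17 and 360.4 ± 25 TPM in the same 3 groups. The phosphate carrier Slc25a3 had 320.2 ± 14 TPM in 1C-MIM, 313 ± 15 TPM in scramble and 315 ± 16 TPM in control. These 3 genes held 64.1% ± 0.38 of the summed carrier TPM in 1C-MIM, 63.5% ± 0.73 in scramble and 63.7% ± 0.84 in control, and the group ranges overlapped. The peroxisomal cofactor carrier Slc25a17, the glutathione carrier Slc25a39 and the oxoglutarate/malate carrier Slc25a11 came next, each between 73.0 and 99.5 TPM in every group mean. At the other end lay the liver-type aspartate/glutamate carrier Slc25a13, at 0.493 ± 0.10 TPM in 1C-MIM, 0.686 ± 0.062 TPM in scramble and 0.765 ± 0.21 TPM in control. Summed over all 38 carriers the level was 1894 ± 47 TPM in 1C-MIM, 1890 ± 7.8 TPM in scramble and 1884 ± 16 TPM in control, with overlapping ranges.

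**Figure D1:**
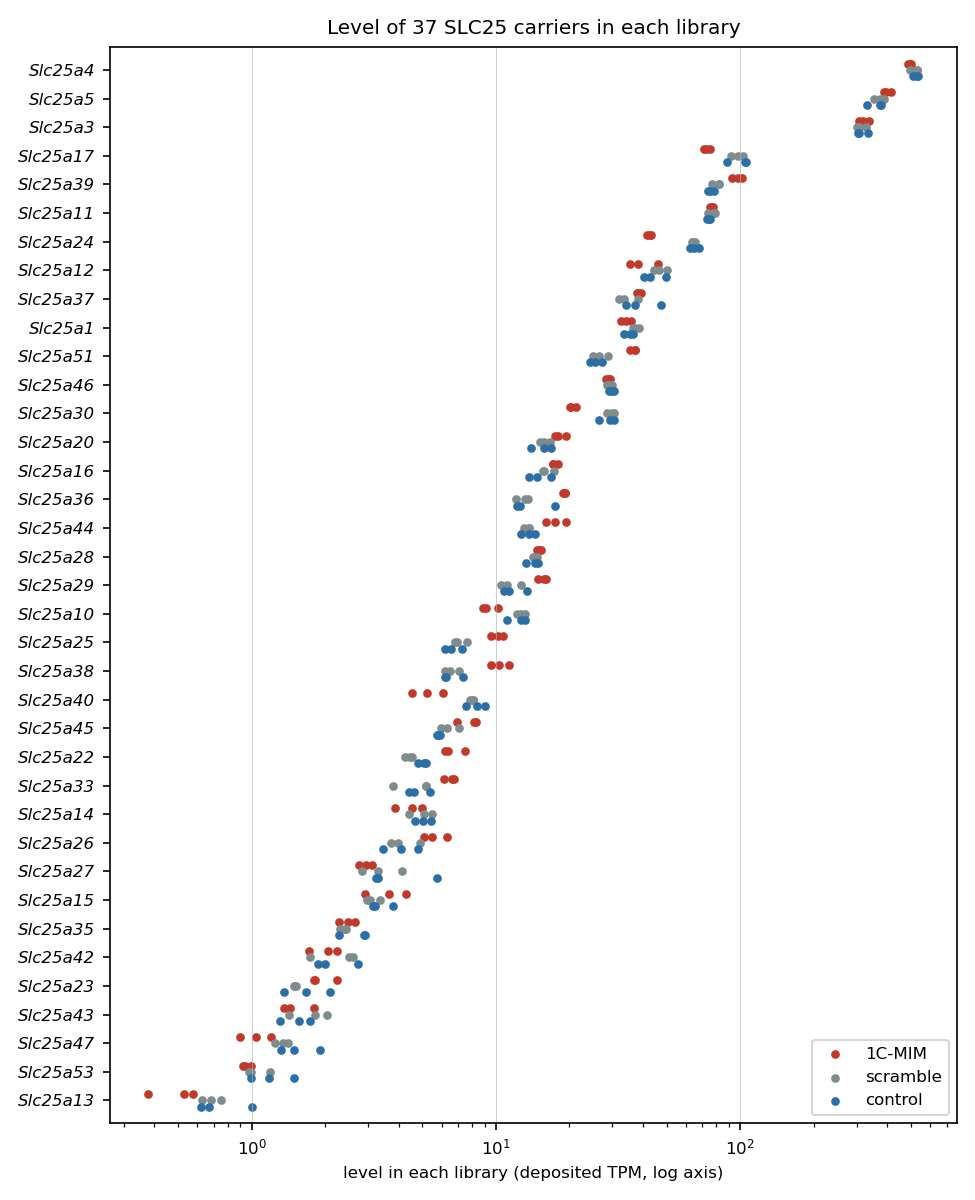
Level of 37 carriers (rows, most abundant at the top) in every library, as deposited TPM on a log axis, with 1C-MIM, scramble and control in separate colours. Slc25a4, Slc25a5 and Slc25a3 lie well to the right of all other carriers in each of the 9 libraries.

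The 8 symbols below the level were close to silent. Slc25a21, Slc25a31 (the testis ADP/ATP carrier) and Slc25a41 had 0 counts in all 9 libraries, and Slc25a48, a choline carrier, had 1 count in total. Slc25a34, Slc25a54, Slc25a18 and Slc25a2 had 65, 47, 31 and 20 counts over the 9 libraries.

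Each comparison was tested with edgeR's quasi-likelihood test over 14006 genes, with a Benjamini-Hochberg adjusted p below 0.05 taken as a call. Against control, 20 of 38 carriers (52.6%) changed in 1C-MIM, 13 higher and 7 lower, where 47.3% of all tested genes were called (22.9% higher, 24.3% lower). Against scramble, 16 of 38 (42.1%) changed, 10 higher and 6 lower, where 46% of all genes were called (22.9% higher, 23.2% lower). Both shares are near those of the whole transcriptome. No carrier was called with a difference of 2-fold or more in either comparison, where 7.13% and 6.73% of all genes were. The log2 fold changes spanned -0.68 to 0.64 against control, with a median of 0.01 (all genes -0.01), and -0.62 to 0.63 against scramble, with a median of 0.03 (all genes -0.00). The median absolute log2 fold change was 0.35 against control (all genes 0.23) and 0.26 against scramble (all genes 0.23).

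Both comparisons use the same 1C-MIM libraries. Of the carriers, 15 were called against both: Slc25a22, Slc25a25, Slc25a26, Slc25a29, Slc25a33, Slc25a36, Slc25a38, Slc25a39, Slc25a44 and Slc25a51 were higher, and Slc25a10, Slc25a17, Slc25a24, Slc25a30 and Slc25a40 were lower. Another 5 were called against control alone and 1, Slc25a12, against scramble alone. Whether the difference from control and the difference from scramble were unequal was not tested for any of them. The 1C-MIM libraries lay wholly outside the range of the control libraries for 25 carriers (15 higher, 10 lower; 55.5% of all genes), and wholly outside the scramble range for 20 (12 higher, 8 lower; 59.5% of all genes). Among the 10 most abundant carriers by TPM, 1 was higher, 2 were lower and 7 were not called against control. The other 28 had 12 higher, 5 lower and 11 not called. Against scramble the 10 most abundant had 1 higher, 3 lower and 6 not called, and the other 28 had 9 higher, 3 lower and 16 not called.

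**Figure D2:**
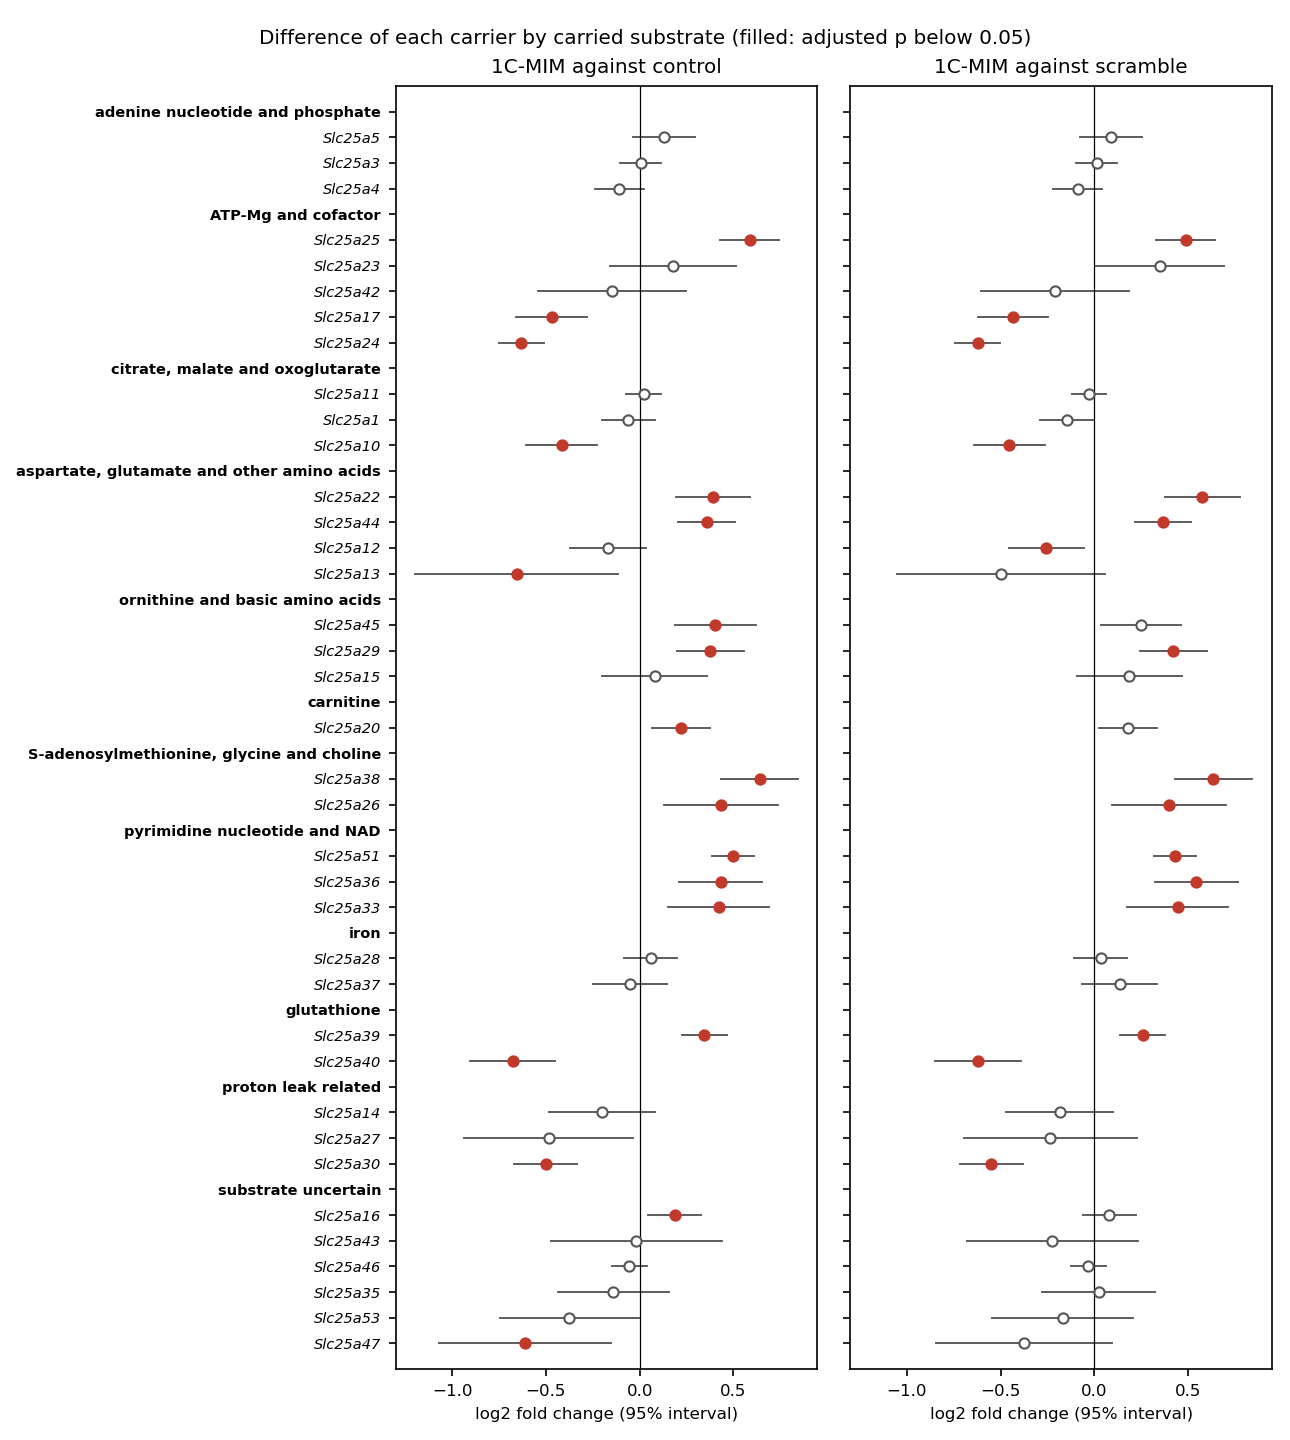
Log2 fold change of 37 carriers (points) with its 95% interval (lines) in 1C-MIM against control (left) and against scramble (right), grouped by the substrate carried; filled points were called. The ADP/ATP and phosphate carriers lie near 0 and uncalled in both panels, whereas the S-adenosylmethionine and glycine carriers lie to the right of 0, with filled points in both panels.

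The ADP/ATP and phosphate carriers, which serve ATP synthesis itself, gave no call in either comparison. Slc25a4 had 387.9, 383.3 and 393.7 CPM in 1C-MIM, 389.8, 424.9 and 424.5 CPM in scramble, and 390.5, 438.8 and 426.4 CPM in control. Its ranges overlapped in every pair of groups, and control replicate 1 and scramble replicate 1 lay at the 1C-MIM level. The log2 fold change against control was -0.11 ± 0.06 (SE; 95% interval -0.24 to 0.02; edgeR adjusted p = 0.15), and it was called without control replicate 1 (log2 fold change -0.16, edgeR adjusted p = 0.0191).

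Slc25a5 had 363.8, 342.2 and 349.9 CPM in 1C-MIM, 309.4, 348.5 and 336.0 CPM in scramble, and 284.9, 340.9 and 340.3 CPM in control. All 1C-MIM libraries lay above all control libraries, by a small step, and overlapped with scramble; the log2 fold change against control was 0.13 ± 0.07 (95% interval -0.04 to 0.29; edgeR adjusted p = 0.18). Slc25a3 had 358.4, 331.2 and 342.7 CPM in 1C-MIM, 352.4, 331.6 and 338.9 CPM in scramble, and 349.7, 338.7 and 339.1 CPM in control. Its groups overlapped fully, and its 95% interval against control, -0.10 to 0.12, leaves room for only small differences.

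The glycine carrier Slc25a38 and the S-adenosylmethionine carrier Slc25a26 rose in both comparisons, where 22.9% of all genes rose in each. Slc25a38 imports glycine, used in the matrix for haem synthesis and by the glycine cleavage system. It had 12.6, 10.8 and 11.6 CPM in 1C-MIM, 7.92, 7.48 and 7.16 CPM in scramble, and 8.09, 7.28 and 7.11 CPM in control. Every 1C-MIM library lay above all 6 others. Its log2 fold change was 0.64 ± 0.09 against control (95% interval 0.44 to 0.85; edgeR adjusted p = 0.00024) and 0.63 ± 0.09 against scramble (edgeR adjusted p = 0.00028), the largest rise among the 38 carriers in both comparisons.

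Slc25a26 brings S-adenosylmethionine, the cell's methyl donor, into the matrix, where RNA, proteins and lipids are methylated. It had 8.56, 7.49 and 6.97 CPM in 1C-MIM, 6.67, 5.22 and 5.53 CPM in scramble, and 6.42, 5.82 and 4.82 CPM in control. The 1C-MIM libraries lay above all others, but the lowest of them was close to the highest scramble library. The log2 fold change was 0.43 ± 0.14 against control (edgeR adjusted p = 0.023) and 0.40 ± 0.14 against scramble (edgeR adjusted p = 0.035). Against control the call ended without control replicate 2 or 3 or 1C-MIM replicate 1 or 2 (edgeR adjusted p = 0.0507 to 0.089). Against scramble it ended without 1C-MIM replicate 1 or 2 or scramble replicate 2 or 3 (edgeR adjusted p = 0.0694 to 0.124). With library size alone the call against scramble was also lost (edgeR adjusted p = 0.0513). Slc25a26 shares exons with Lrig1 on the opposite strand, and the sources used here do not state if counting was stranded.

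**Figure D3:**
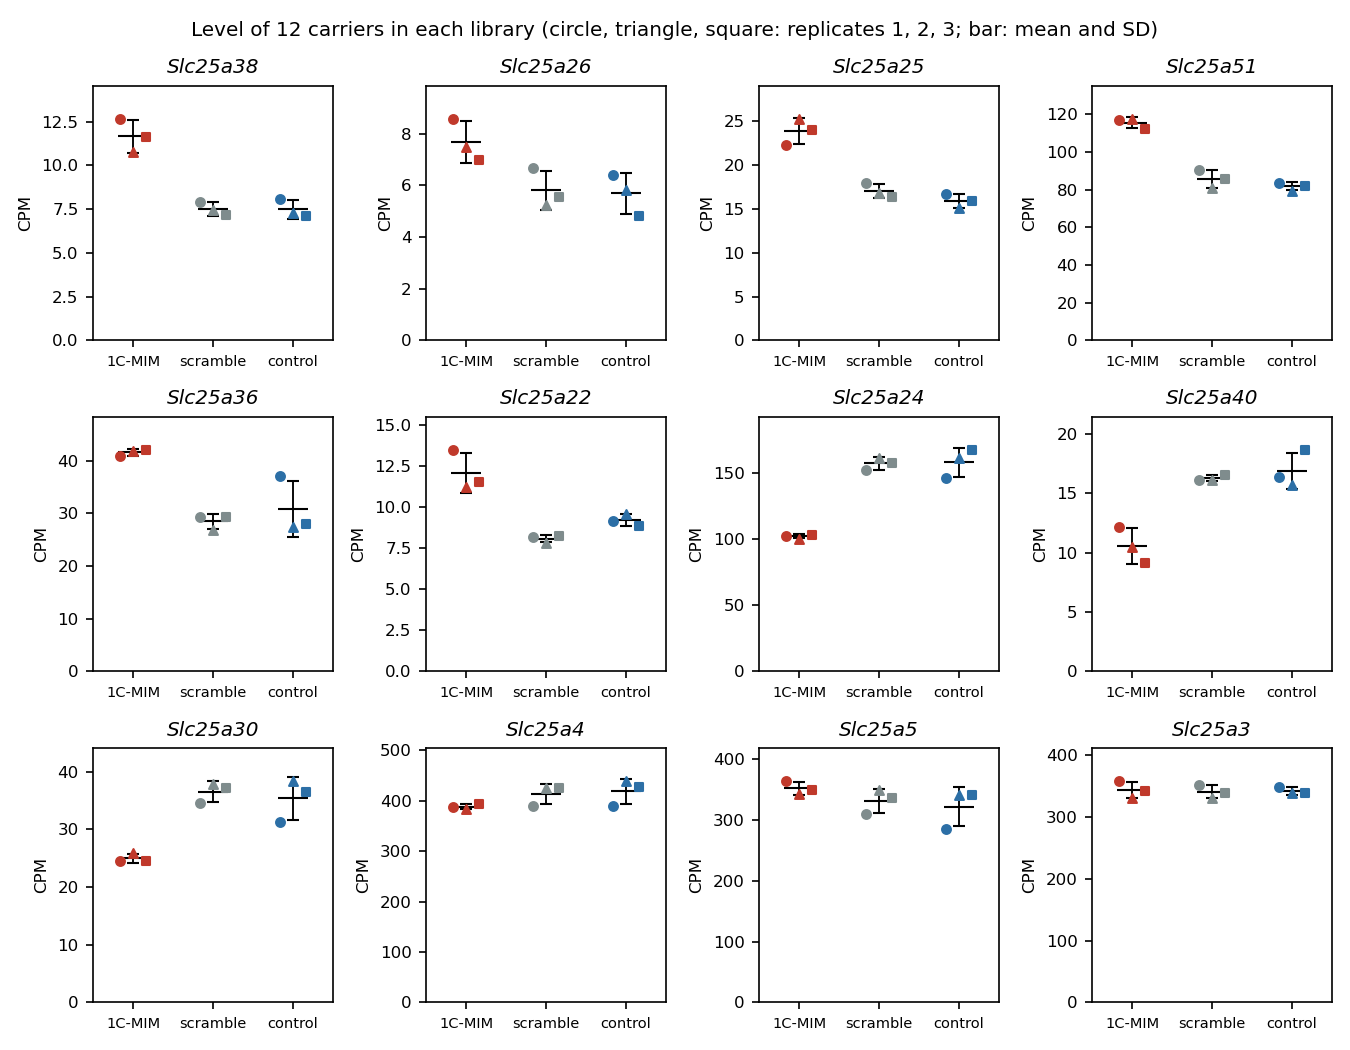
CPM of 12 carriers in each library, with the mean and SD of each group (bars) and replicates 1, 2 and 3 as circle, triangle and square. For the 6 carriers that rose (Slc25a38 to Slc25a22) the 1C-MIM libraries lie above the other 6, closely so for Slc25a26 and Slc25a36, and for the 3 that fell (Slc25a24 to Slc25a30) they lie below; Slc25a4 and Slc25a3 overlap between all groups, and Slc25a5 between 1C-MIM and scramble.

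Among carriers of pyrimidine nucleotides and NAD, Slc25a33, Slc25a36 and Slc25a51 rose in both comparisons, where 22.9% of all genes rose in each. Slc25a51, which imports NAD into mitochondria, had 117, 117 and 112 CPM in 1C-MIM, 90.6, 80.9 and 85.5 CPM in scramble, and 83.6, 79.5 and 82.1 CPM in control. The 1C-MIM libraries stood well above the other 6, with a log2 fold change of 0.50 ± 0.05 against control (edgeR adjusted p = 2.3e-05) and 0.43 ± 0.05 against scramble (edgeR adjusted p = 6.8e-05). Slc25a36, a pyrimidine nucleotide carrier, had 40.9, 41.9 and 42 CPM in 1C-MIM, 29.4, 26.9 and 29.3 CPM in scramble, and 37.0, 27.5 and 28.0 CPM in control. Control replicate 1 alone lay close to the 1C-MIM libraries. The log2 fold change was 0.43 ± 0.10 against control (edgeR adjusted p = 0.0048) and 0.54 ± 0.10 against scramble (edgeR adjusted p = 0.0013). Slc25a33, the related pyrimidine carrier, averaged 8.68 ± 0.41 CPM in 1C-MIM, 6.38 ± 1.0 CPM in scramble and 6.49 ± 0.51 CPM in control, with a log2 fold change of 0.42 ± 0.12 against control (edgeR adjusted p = 0.015) and 0.44 ± 0.12 against scramble (edgeR adjusted p = 0.013). The call against control was lost without control replicate 3 (edgeR adjusted p = 0.057).

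The calcium-regulated ATP-Mg/phosphate carriers, which adjust the size of the matrix adenine nucleotide pool, moved in opposite directions. Slc25a24 fell to 102.8, 100.5 and 103.1 CPM in 1C-MIM, against 152.5, 161.8 and 157.8 CPM in scramble and 146.1, 161.6 and 167.4 CPM in control. No library of another group came near the 1C-MIM values, and the log2 fold change of -0.63 ± 0.05 against control had the smallest adjusted p of all carriers (edgeR adjusted p = 8.2e-06); against scramble it was -0.62 ± 0.05 (edgeR adjusted p = 1e-05). Slc25a25 had 22.3, 25.2 and 23.99 CPM in 1C-MIM, 17.9, 16.8 and 16.4 CPM in scramble, and 16.6, 15.1 and 15.9 CPM in control. It rose by 0.59 ± 0.07 on the log2 scale against control (edgeR adjusted p = 7.6e-05) and by 0.49 ± 0.07 against scramble (edgeR adjusted p = 0.00027), with its 1C-MIM libraries above the other 6; it shares exons with Naif1 on the opposite strand. The third such carrier, Slc25a23, averaged 4.67 ± 0.59 CPM in 1C-MIM, 3.66 ± 0.084 CPM in scramble and 4.13 ± 0.79 CPM in control and was not called (log2 fold change 0.18 against control and 0.35 against scramble; edgeR adjusted p = 0.36 and 0.087).

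Of the 2 coenzyme A carriers in the same group, Slc25a17, which sits in peroxisomes and carries coenzyme A, FAD and NAD, fell to 86.5 ± 2.1 CPM in 1C-MIM, against 117 ± 8.4 CPM in scramble and 119.8 ± 15 CPM in control. Its log2 fold change was -0.47 ± 0.09 against control (edgeR adjusted p = 0.0011) and -0.43 ± 0.09 against scramble (edgeR adjusted p = 0.0019). The mitochondrial coenzyme A carrier Slc25a42 was not called (log2 fold change -0.15 and -0.21 against control and scramble; edgeR adjusted p = 0.52 and 0.36).

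The glutathione carriers also split. Slc25a40 fell to 12.1, 10.5 and 9.12 CPM in 1C-MIM, against 16.1, 16.1 and 16.6 CPM in scramble and 16.3, 15.7 and 18.6 CPM in control. All 1C-MIM libraries lay below the other 6, and the log2 fold change of -0.68 ± 0.10 against control (95% interval -0.91 to -0.45; edgeR adjusted p = 0.00035) was the largest fall of the 38; against scramble it was -0.62 ± 0.10 (edgeR adjusted p = 0.00065). Its close relative Slc25a39, whose protein is known to be destabilised when glutathione is plentiful, had 119.7, 109.8 and 116.9 CPM in 1C-MIM, 97.1, 99.4 and 93.3 CPM in scramble, and 85.3, 92.4 and 95.1 CPM in control. All 1C-MIM libraries were higher than the other 6, with a log2 fold change of 0.34 ± 0.05 against control (edgeR adjusted p = 0.00043) and 0.26 ± 0.05 against scramble (edgeR adjusted p = 0.0028).

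Because related carriers can stand in for each other, the ratio of their TPM was taken in each library, for 6 pairs that share a substrate and were chosen after their values had been seen, so no test is given. The ratio of Slc25a39 to Slc25a40 averaged 18.7 ± 2.6 in 1C-MIM, 10.05 ± 0.47 in scramble and 9.14 ± 0.70 in control. The ratio of Slc25a25 to Slc25a24 averaged 0.239 ± 0.017 in 1C-MIM, 0.111 ± 0.0080 in scramble and 0.103 ± 0.012 in control. The ratio of Slc25a4 to Slc25a5 averaged 1.24 ± 0.036 in 1C-MIM, 1.40 ± 0.027 in scramble and 1.46 ± 0.068 in control. In these 3 pairs the 1C-MIM libraries did not overlap with either other group, higher for the first pairs named and lower for the ADP/ATP carriers. For the first pairs named this adds nothing new, since Slc25a39 and Slc25a25 lay wholly higher and Slc25a40 and Slc25a24 wholly lower in 1C-MIM. Neither ADP/ATP carrier gene was called alone. The share of all gene pairs without overlap was not computed. Ratios of Slc25a12 to Slc25a13, of the mitoferrins Slc25a37 to Slc25a28 and of Slc25a36 to Slc25a33 overlapped between all groups.

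**Figure D4:**
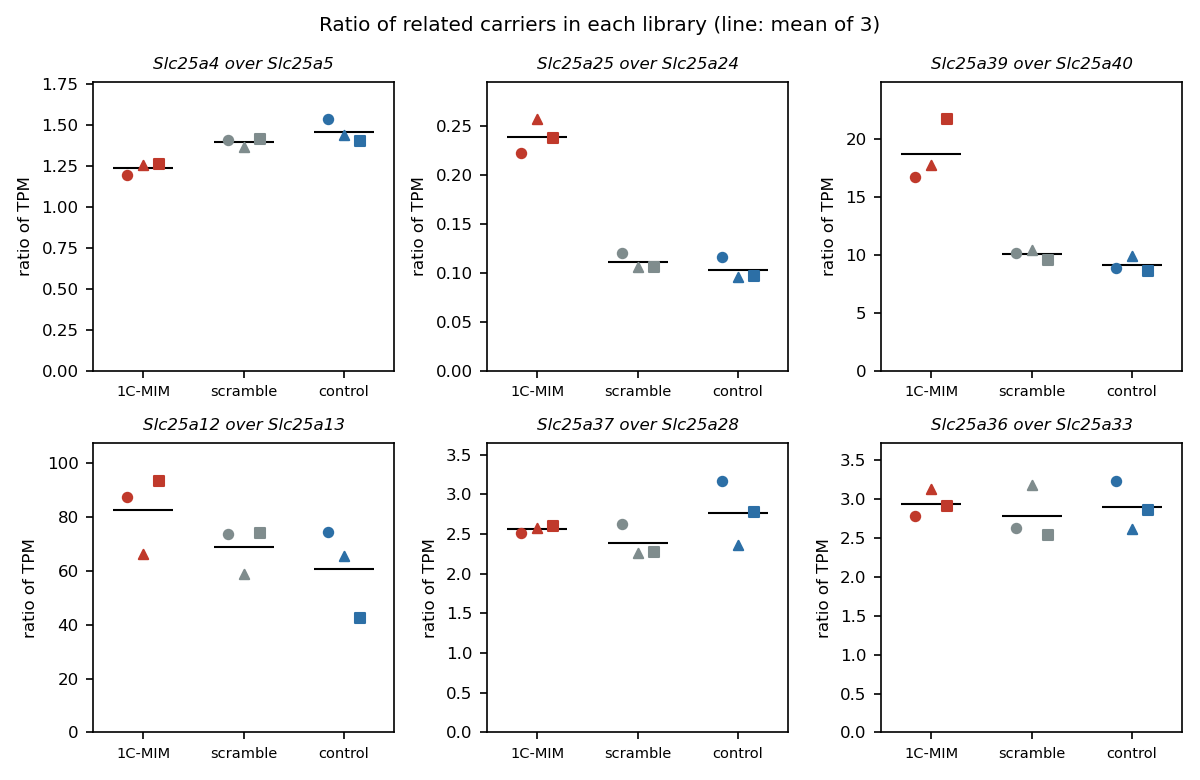
Ratio of deposited TPM between 6 pairs of related carriers in each library (circle, triangle and square: replicates 1, 2 and 3; line: mean of 3). The 1C-MIM libraries lie above all others for Slc25a25 over Slc25a24 and Slc25a39 over Slc25a40 and below all others for Slc25a4 over Slc25a5, and the remaining 3 pairs overlap.

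The aspartate/glutamate carriers of the malate-aspartate shuttle fell in 1 comparison each. Slc25a12, the aspartate/glutamate carrier typical of muscle, had 95.5, 79.5 and 73.7 CPM in 1C-MIM, 104, 94.4 and 99.0 CPM in scramble, and 101, 87.3 and 91.0 CPM in control. 1C-MIM replicate 1 lay within the ranges of both other groups, so the groups overlapped. The log2 fold change was -0.26 ± 0.09 against scramble (edgeR adjusted p = 0.04) and -0.17 ± 0.09 against control (95% interval -0.37 to 0.03; edgeR adjusted p = 0.15). The call against scramble ended without 1C-MIM replicate 2 or 3 or any 1 of the scramble libraries (edgeR adjusted p = 0.053 to 0.148), and without 1C-MIM replicate 1 the difference from control was called (log2 fold change -0.28, edgeR adjusted p = 0.0122). With the replicate number as a block the difference from control was called as well (edgeR adjusted p = 0.0208).

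Slc25a13, at low counts, had 1.16, 1.277 and 0.841 CPM in 1C-MIM, 1.503, 1.71 and 1.43 CPM in scramble, and 1.45, 1.42 and 2.29 CPM in control. The 1C-MIM libraries were below all others, and control replicate 3 was far above the rest. The log2 fold change was -0.66 ± 0.25 against control (95% interval -1.20 to -0.11; edgeR adjusted p = 0.047) and -0.50 ± 0.25 against scramble (edgeR adjusted p = 0.13). The call ended without control replicate 3 (log2 fold change -0.39, edgeR adjusted p = 0.21) and without any 1 of the 1C-MIM libraries (edgeR adjusted p = 0.0537 to 0.164). With the replicate number as a block its adjusted p was 0.0561 in edgeR's test. With all libraries kept, DESeq2 (adjusted p = 0.0592) and limma-voom (0.0577) did not call it against control either. Nor did edgeR without the low-count filter (0.0521) or in a fit of the compared groups alone (0.0796).

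The shuttle's other carrier, Slc25a11, was not called, with 101 ± 1.1 CPM in 1C-MIM, 103 ± 2.8 CPM in scramble and 99.6 ± 2.0 CPM in control. Its 95% interval against control was -0.07 to 0.11 on the log2 scale; it shares exons with Rnf167 on the opposite strand. Of the 4 shuttle enzymes, Mdh2 (log2 fold change 0.27, edgeR adjusted p = 0.0015), Got2 (0.23, adjusted p = 0.0057) and Got1 (0.21, adjusted p = 0.044) rose against control, and Got2 and Mdh2 rose against scramble. Mdh1 was not called, and 22.9% of all tested genes rose in each comparison.

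Of the other amino acid carriers, Slc25a22, which moves glutamate, had 13.5, 11.2 and 11.5 CPM in 1C-MIM, 8.17, 7.85 and 8.28 CPM in scramble, and 9.16, 9.599 and 8.89 CPM in control. The 1C-MIM libraries were above all others, with a log2 fold change of 0.58 ± 0.09 against scramble (edgeR adjusted p = 0.00042) and 0.39 ± 0.09 against control (edgeR adjusted p = 0.0041). Slc25a44, which carries branched-chain amino acids, averaged 44.9 ± 4.2 CPM in 1C-MIM, 34.9 ± 0.91 CPM in scramble and 35.1 ± 1.3 CPM in control, a log2 fold change of 0.36 ± 0.07 against control (edgeR adjusted p = 0.0014) and 0.37 ± 0.07 against scramble (edgeR adjusted p = 0.0013). Slc25a29, which carries lysine and arginine, rose by 0.38 ± 0.08 on the log2 scale against control (edgeR adjusted p = 0.0029) and by 0.42 ± 0.08 against scramble (edgeR adjusted p = 0.0016). Slc25a45 averaged 10.1 ± 1.0 CPM in 1C-MIM, 8.53 ± 0.63 CPM in scramble and 7.67 ± 0.17 CPM in control, and was called against control alone (log2 fold change 0.40, edgeR adjusted p = 0.0059; against scramble 0.25, adjusted p = 0.056); without 1C-MIM replicate 1 or scramble replicate 1 it was also called against scramble (edgeR adjusted p = 0.0177 and 0.0431). The ornithine/citrulline carrier Slc25a15 was not called against either group (log2 fold change 0.08 ± 0.13 against control, edgeR adjusted p = 0.63), except against scramble without 1C-MIM replicate 2 (edgeR adjusted p = 0.0429).

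The carnitine/acylcarnitine carrier Slc25a20 had 24.3, 22.2 and 23.0 CPM in 1C-MIM, 21.1, 19.8 and 20.4 CPM in scramble, and 20.9, 20.7 and 18.2 CPM in control. The 1C-MIM libraries lay closely above all others, and scramble and control overlapped. Its log2 fold change was 0.22 ± 0.07 against control (edgeR adjusted p = 0.025) and 0.18 ± 0.07 against scramble (edgeR adjusted p = 0.058), and the call against control ended without control replicate 3 or 1C-MIM replicate 1 or 3 (edgeR adjusted p = 0.056 to 0.0983). With library size alone (edgeR adjusted p = 0.0661) and in a fit of 1C-MIM and control alone (0.0503) the call against control was also lost. The difference from scramble was called with the replicate number as a block (edgeR adjusted p = 0.0404) and in a fit of 1C-MIM and scramble alone (0.0412). Of the 5 carnitine enzymes, Cpt1a (log2 fold change 0.36), Crat (0.27) and Cpt1c (0.23) rose against control, with edgeR adjusted p of 0.00062, 0.018 and 0.04, and the same 3 rose against scramble. Cpt2 and Cpt1b were not called. Of all tested genes, 22.9% rose in each comparison.

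Among carriers of organic acids, the dicarboxylate carrier Slc25a10, which exchanges malate or succinate for phosphate, fell to 26.7 ± 1.8 CPM in 1C-MIM, against 36.6 ± 1.9 CPM in scramble and 35.6 ± 4.1 CPM in control. Its log2 fold change was -0.42 ± 0.09 against control (edgeR adjusted p = 0.0024) and -0.45 ± 0.09 against scramble (edgeR adjusted p = 0.0015). The citrate carrier Slc25a1, which exports citrate for fatty acid synthesis, had 40.6, 42.7 and 39.1 CPM in 1C-MIM, 43.1, 47.2 and 45.3 CPM in scramble, and 39.2, 44 and 44.4 CPM in control. Its 1C-MIM libraries were below those of scramble and overlapped with control; the log2 fold change was -0.15 ± 0.06 against scramble (95% interval -0.29 to -0.01; edgeR adjusted p = 0.079) and -0.06 ± 0.06 against control (edgeR adjusted p = 0.47). With the replicate number as a block the difference from scramble was called (edgeR adjusted p = 0.0369).

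Of the 3 relatives of the uncoupling proteins, 1 fell and 2 were not called in each comparison. Of all genes, 24.3% fell against control and 23.2% against scramble. Slc25a30 fell to 24.5, 25.9 and 24.5 CPM in 1C-MIM, against 34.5, 37.9 and 37.3 CPM in scramble and 31.2, 38.4 and 36.5 CPM in control. All 1C-MIM libraries lay below the other 6, and its log2 fold change was -0.50 ± 0.08 against control (edgeR adjusted p = 0.00035) and -0.55 ± 0.08 against scramble (edgeR adjusted p = 0.0002). Slc25a27 averaged 5.61 ± 0.32 CPM in 1C-MIM, 6.59 ± 1.2 CPM in scramble and 7.87 ± 2.5 CPM in control, where control replicate 1 had 10.8 CPM, and was not called (log2 fold change against control -0.49 ± 0.20, edgeR adjusted p = 0.073), though it was without control replicate 2 or 3 (edgeR adjusted p = 0.0424 and 0.0419) and with the replicate number as a block (edgeR adjusted p = 0.0146). Slc25a14 was not called (-0.20 ± 0.13, edgeR adjusted p = 0.23). Ucp2, an uncoupling protein gene of the same family under another symbol, fell in both comparisons (log2 fold change -0.39 against control, edgeR adjusted p = 0.025; -0.51 against scramble, adjusted p = 0.0078).

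The mitoferrins, which import iron, were not called. Slc25a37 averaged 114 ± 2.8 CPM in 1C-MIM, 104 ± 7.9 CPM in scramble and 118 ± 17 CPM in control, and Slc25a28 averaged 16.4 ± 0.30, 16.1 ± 0.39 and 15.8 ± 0.77 CPM in the same groups. Their 95% intervals on the log2 scale were -0.25 to 0.15 and -0.08 to 0.20 against control, and -0.06 to 0.33 and -0.11 to 0.18 against scramble. Without the libraries numbered 1, Slc25a37 was called higher against scramble (log2 fold change 0.21, edgeR adjusted p = 0.000509).

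Of 6 carriers without a settled substrate, Slc25a16 rose and Slc25a47 fell against control, and none was called against scramble. Of all genes, 47.3% were called against control and 46% against scramble. Slc25a47, known as a liver carrier, had 1.34, 1.17 and 1.01 CPM in 1C-MIM, 1.503, 1.43 and 1.63 CPM in scramble, and 1.45, 1.73 and 2.201 CPM in control. The 1C-MIM libraries lay below all others, though closely and at a low level, and scramble and control overlapped; the log2 fold change was -0.61 ± 0.21 against control (edgeR adjusted p = 0.031) and -0.37 against scramble (edgeR adjusted p = 0.18). The call ended without control replicate 2 or 3 or 1C-MIM replicate 2 or 3 (edgeR adjusted p = 0.0566 to 0.132). It was also lost in DESeq2 (adjusted p = 0.0508) and in an edgeR fit of the compared groups alone (0.0568). Slc25a16 averaged 38.8 ± 1.3 CPM in 1C-MIM, 36.8 ± 1.6 CPM in scramble and 34.2 ± 2.5 CPM in control (log2 fold change 0.19 ± 0.06 against control, edgeR adjusted p = 0.033). Its call ended without control replicate 2 or 3 or 1C-MIM replicate 2 or 3 (edgeR adjusted p = 0.0622 to 0.155). The call was also lost with upper quartile scaling (edgeR adjusted p = 0.0509), library size alone (0.105) and a fit of the compared groups alone (0.0563). Slc25a46, an outer membrane member that shapes mitochondria, and Slc25a35 and Slc25a43 were not called, with log2 fold changes against control of -0.06, -0.14 and -0.02; Slc25a46 and Slc25a35 also share exons with a gene on the opposite strand. Slc25a53 had a log2 fold change of -0.37 (edgeR adjusted p = 0.089) and was called without control replicate 3 (edgeR adjusted p = 0.0399).

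The promoters of the carriers with the largest falls and rises that were called in both comparisons and have a single start in the RefSeq table are shown, because their letters can be set against the known binding motifs of mitochondrial gene regulators. Each is the 250 bases before the transcript start, 5′ to 3′ on the gene's own strand, in build GRCm38.p6; the submitters' notes name GRCm39 for the tables, so the coordinates apply to the promoter sequences alone. Slc25a40 lies at chr5:8422588-8422837 (plus strand), Slc25a24 at chr3:109122899-109123148 (plus), Slc25a38 at chr9:120110132-120110381 (plus) and Slc25a36 at chr9:97111042-97111291 (minus). Capitals mark matches to the motifs listed after the sequences.
Slc25a40: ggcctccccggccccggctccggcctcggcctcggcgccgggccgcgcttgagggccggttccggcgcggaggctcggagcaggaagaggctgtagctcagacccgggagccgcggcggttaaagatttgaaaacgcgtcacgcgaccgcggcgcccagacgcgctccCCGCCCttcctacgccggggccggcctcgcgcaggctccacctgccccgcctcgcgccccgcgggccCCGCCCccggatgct
Slc25a24: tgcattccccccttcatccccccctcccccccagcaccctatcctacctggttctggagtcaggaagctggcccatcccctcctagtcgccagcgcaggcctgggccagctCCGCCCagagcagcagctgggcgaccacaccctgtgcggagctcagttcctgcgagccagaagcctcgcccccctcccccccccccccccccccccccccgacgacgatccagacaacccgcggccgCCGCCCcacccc
Slc25a38: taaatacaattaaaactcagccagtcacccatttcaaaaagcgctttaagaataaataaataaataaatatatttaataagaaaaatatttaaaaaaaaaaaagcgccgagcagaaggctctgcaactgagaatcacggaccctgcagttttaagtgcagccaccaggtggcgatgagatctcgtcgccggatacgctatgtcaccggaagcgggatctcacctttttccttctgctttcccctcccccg
Slc25a36: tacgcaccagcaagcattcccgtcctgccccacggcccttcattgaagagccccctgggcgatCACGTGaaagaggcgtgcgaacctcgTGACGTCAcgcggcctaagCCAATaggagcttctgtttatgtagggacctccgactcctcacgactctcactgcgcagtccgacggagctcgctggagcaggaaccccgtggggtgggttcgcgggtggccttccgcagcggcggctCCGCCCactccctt

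Both strands were searched for GCATGCGC (the NRF1 core), CACGTG (E-box), TGACGTCA (CRE), AAGGTCA (the oestrogen-related receptor motif), GGGCGG (GC box, CCGCCC on the other strand), CCAAT and TGATGNAAT (the C/EBP-ATF element core), and no printed match overlaps another. The falling carriers Slc25a40 and Slc25a24 each hold 2 GC boxes and no other match. Slc25a36 holds an E-box, a CRE, a CCAAT box and a GC box, while the AT-rich stretch before Slc25a38 holds none of the 7. Among the 24 carriers with a single promoter entry, 16 hold a GC box, 12 CCAAT, 4 the E-box and 1 the CRE, and none holds the other motifs. Of all 22862 single-start promoters, 32.4% hold a GC box, 34.7% CCAAT, 5.92% the E-box, 1.61% the CRE, 4.05% the oestrogen-related receptor motif, 2.31% the NRF1 core and 0.849% the C/EBP-ATF core. These are letter matches in 1 window, not binding sites.

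The proteins that place carriers in the inner membrane were measured in the same libraries. Of 6 tested import genes, Timm10, a chaperone of the intermembrane space (log2 fold change 0.55 against control, edgeR adjusted p = 0.00046), and Agk, a subunit of the carrier translocase (0.24, adjusted p = 0.025), rose, and Timm9, the partner chaperone of Timm10, fell (-0.28, adjusted p = 0.0086). All 3 were called the same way against scramble, where Tomm70a, the outer membrane receptor for carriers, also rose (0.14, adjusted p = 0.021). Timm22, the translocase channel, and Timm10b were not called. Over all tested genes, 47.3% were called against control and 46% against scramble, so these counts are read as no result about import.

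Of 11 tested genes that encode other inner membrane carriers or family members with other symbols, 1 rose and 3 fell against control, and 2 rose and 3 fell against scramble. Over all tested genes, 22.9% rose and 24.3% fell against control, and 22.9% rose and 23.2% fell against scramble. Mtch1, an outer membrane family member, rose (log2 fold change 0.41, edgeR adjusted p = 3.3e-05). Sfxn1, a mitochondrial serine carrier that supplies the one-carbon pathway of the matrix, fell to 29.8 CPM in 1C-MIM, against 44.5 CPM in scramble and 45.9 CPM in control on average. Its log2 fold change was -0.62 against control (edgeR adjusted p = 7.9e-05) and -0.58 against scramble (edgeR adjusted p = 0.00014). Its direction is the opposite of that of the glycine carrier Slc25a38. Sfxn3, more abundant at a mean of 139 CPM, fell against scramble alone (log2 fold change -0.23, edgeR adjusted p = 0.0021). Against control it was not called (-0.11, edgeR adjusted p = 0.066). Sfxn4 fell against control alone, and the pyruvate carrier subunit Mpc1 rose against scramble alone. Of 3 outer membrane channels, Vdac1 fell in both comparisons (log2 fold change -0.19 against control and -0.26 against scramble; edgeR adjusted p = 0.0083 and 0.0014).

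In scramble fibres against control fibres, edgeR's quasi-likelihood test called 0 of 38 carriers, where 0.0% of all genes were called, and 0 carriers and 482 of all genes had an unadjusted p below 0.05. DESeq2 and limma-voom also called 0 carriers, and 4 and 0 of all 14006 genes. Without the libraries numbered 1, edgeR's test called 0 carriers and 96 of 14020 genes. In that setting 3 carriers and 1375 of all genes had an unadjusted p below 0.05. The carriers' log2 fold changes spanned -0.25 to 0.21, with a median absolute value of 0.06 (all genes 0.06). The libraries did not overlap for 2 carriers, Slc25a45, which was higher in scramble, and Slc25a22, which was lower, where 9.09% of all genes did not overlap. The widest 95% interval was that of the lowest carrier by TPM, Slc25a13, at -0.68 to 0.36 on the log2 scale. It leaves room for differences within that range.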

How the data were processed

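Per the labels' protocols, 1.3 µg of total RNA per library was used to build SMARTer mRNA-seq libraries. Salmon 1.5.2, STAR, featureCounts, Subread 2.0.1 and build GRCm39 are among the names in the submitters' processing notes, which give no roles and no strand setting. Per the file headers, the authors deposited 3 values (count, FPKM, TPM) for each of 33984 RefSeq transcripts. The authors' counts are whole and not normalized, and reads in shared exons count under each transcript, so each symbol was represented by its most abundant transcript (5261 symbols have several, 10 of them carriers). The deposited TPM served to compare levels between genes, and the deposited FPKM was not tested.

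The counts of 14006 genes passing filterByExpr (all 38 carriers did; the rest hold 0.0280% of counts) were fitted with edgeR 4.0.16 (limma 3.58.1, R 4.3.3): TMM factors (0.981 to 1.019), robust quasi-likelihood fits of all 9 libraries, Benjamini-Hochberg adjustment over all genes and a threshold of 0.05. The common biological coefficient of variation was 0.0842, and libraries of a group differed by more than sampling noise. CPM use TMM-normalized library sizes. The quasi-likelihood test gives no standard error, so the SE is the absolute log2 fold change divided by the square root of the F statistic. The 95% intervals were built from this SE with a t quantile. The fit was tested on simulated data. Per-library values are given for the carriers of the ADP/ATP, phosphate, citrate, aspartate/glutamate, carnitine, S-adenosylmethionine and glycine routes and for those called with an absolute log2 fold change of at least 0.5; Slc25a39 and Slc25a51 were added after their values had been seen. Exon overlaps come from GENCODE M21, and those named above are with protein-coding genes alone. Slc25a10, Slc25a23, Slc25a33 and Slc25a37 also share exons with opposite-strand genes not classed as protein-coding, so the unstated strand setting applies to them too. Promoters come from RefSeq (30 carriers have an entry). Of the 38 members, 1 enters the counts over all carriers and is otherwise not reported here. The members and lists were chosen with earlier results of these data known.

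Same-numbered libraries of scramble and control deviated together (correlations 0.481, 0.214 and 0.168), mainly those numbered 1. These values do not settle whether the numbers mark pairs, and the reported test is unpaired. Some unlike numbers correlated as well (scramble replicate 2 with control replicate 3, 0.242, and scramble replicate 3 with control replicate 2, 0.123). The block left 0 carriers called there. For the 1C-MIM comparisons the correlations were 0.0841 to 0.194 against control and 0.0279 to 0.153 against scramble. The numbers were not taken as pairs there either. Alternatives were other scalings and filters, limma-voom, DESeq2 1.42.0, fits of only the compared groups, the block, the mean over transcripts, an adjusted p below 0.01 and leaving out libraries.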

Additional observations from a re-analysis of the deposited data

How the results depend on the processing

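Counts of called carriers stayed within 1.5 times the reported ones under all 18 alternatives. Against control they ran from 14 (adjusted p below 0.01) to 22 (without the libraries numbered 1). In these settings 4618 of 14006 and 7918 of 14020 tested genes were called. Against scramble the carrier counts ran from 13 to 21 in the same settings, where 4423 of 14006 and 7746 of 14020 genes were called. Leaving out single libraries gave 16 to 21 carriers against control and 14 to 17 against scramble. The genes called there were 5487 to 7195 and 5267 to 5879, of 14123 to 14175 tested. With the replicate number as a block, 21 carriers were called against control, 18 against scramble and 0 for scramble against control. The block called 7397, 7309 and 0 of 14006 genes in these comparisons. Of the 20 carriers called against control, 14 kept the call under every alternative, as did 13 of the 16 called against scramble. One alternative, the same fit at an adjusted p below 0.01, by itself left 14 and 13, so these counts equal those of that threshold. The calls lost under some alternatives were those of Slc25a13, Slc25a16, Slc25a20, Slc25a26, Slc25a33 and Slc25a47 against control and of Slc25a12, Slc25a26 and Slc25a33 against scramble. Slc25a33 lost its call against scramble at the stricter threshold alone. Under some alternative, 4 uncalled carriers gained a call against control (Slc25a4, Slc25a12, Slc25a27 and Slc25a53) and 8 against scramble, among them Slc25a1, Slc25a4, Slc25a20, Slc25a23, Slc25a37 and Slc25a45. Slc25a4, for example, was called against control with library size alone (edgeR adjusted p = 0.0438) and against scramble without the libraries numbered 1 (0.00348). No called carrier changed sign.

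Uncalled carriers near 0 did. Against control, upper quartile scaling gave log2 fold changes of -0.0011 for Slc25a11 and -0.015 for Slc25a3, library size alone gave -0.026 and -0.040, and a filter of at least 1 CPM gave -0.0042 for Slc25a3. Leaving out libraries gave -0.023 to 0.035 for Slc25a3, -0.14 to 0.081 for Slc25a37, -0.24 to 0.0015 for Slc25a42, -0.16 to 0.097 for Slc25a43 and -0.051 to 0.21 for Slc25a15. Against scramble, Slc25a3 came to -0.0045 under upper quartile scaling and -0.021 under library size alone, where Slc25a28 was at -0.0019 and Slc25a35 at -0.010; leaving out libraries gave -0.016 to 0.041 for Slc25a3 and -0.023 to 0.080 for Slc25a35. The cause was not tested. Against control the intervals were widest for Slc25a13, Slc25a43 and Slc25a47, the carriers with a mean below about 2 CPM. Slc25a27, at a mean of 6.69 CPM, had a wider interval against scramble (-0.695 to 0.224) than Slc25a43 at 1.45 CPM (-0.679 to 0.231). The part of depth in these widths was not tested.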
